A study of Mus musculus with 6 samples.

Results

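Fenestrated endothelial cells are described here from single-cell transcriptomes of the mouse brain microvasculature. The cells were chosen by their unique molecular identifier (UMI) counts, each UMI standing for 1 captured transcript. A fenestrated cell had at least 2 UMIs of Plvap and at least 4 of Plvap, Esm1, Rbp7, Cd300lg and Igfbp3 together. It had 0 UMIs of the myeloid genes Cx3cr1, Aif1 and Csf1r and at most 4 of the smooth muscle genes Acta2, Tagln and Myh11. The rule was applied to the 44112 barcodes in which 500 to 4500 genes were detected and mitochondrial transcripts made up less than 10% of UMIs, and it found 531 fenestrated cells. The comparison class, called barrier endothelial cells, numbered 31433 and had at least 6 UMIs of Cldn5, Flt1, Ly6c1 and Itm2a together and 0 UMIs of Plvap.

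The study profiled 6 male mice of 12 months, 1 droplet library each. The 3 WT mice were of the C57BL/6J strain, and the 3 ArcSwe mice carried the TgApp ArcSwe transgene, a human amyloid precursor protein with the Swedish and Arctic mutations that models the amyloid deposits of Alzheimer's disease in plaques and vessel walls. Vessel fragments of 1 hemisphere of the cerebrum were captured on beads coated with CD31 antibody and digested to single cells, and no mouse was treated. The promoter of the transgene is not given in the sources used here.

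Most brain capillaries are lined by endothelium that seals the blood from the tissue through tight junctions, carries nutrients across by dedicated transporters and lacks pores. Fenestrated endothelium is found at the choroid plexus and in the circumventricular organs, where small pores closed by diaphragms let solutes pass between blood and tissue. The protein encoded by Plvap builds those diaphragms. Wnt signals that act on endothelial beta-catenin maintain the barrier state, whereas signalling by vascular endothelial growth factor is known to maintain fenestrated vessels.

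The libraries held 26436229 to 59161203 UMIs. The WT mice gave 57, 100 and 97 fenestrated cells, and the ArcSwe mice gave 135, 53 and 89. The summed fenestrated cells of a mouse held 362430 to 783342 UMIs, and the summed barrier cells held 11660043 to 38611168. The median fenestrated cell had 3649 to 8653 UMIs and 1884 to 3392 genes by mouse, and the median barrier cell had 3125 to 5660 UMIs. Fenestrated cells were therefore the class with the fewer cells and the smaller sums in each of the 6 libraries.

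WT 3 and ArcSwe 3 stood apart from the other libraries in RNA of other cells. Of the cells that met the marker conditions, 253 of 791 were left out for a myeloid UMI, and the percentage left out was 19.7, 24.2 and 37.8 in the WT mice and 27.2, 8.47 and 50.0 in the ArcSwe mice. A further 7 were left out for smooth muscle UMIs, and these came from ArcSwe mice. The barrier cells, to which no myeloid limit applied, carried a UMI of the same myeloid genes in 11.5% to 42.0% of cells, again most often in ArcSwe 3. Barcode sequences recurred between libraries 235 times among the cells kept, and 1 recurrence joined a pair of fenestrated cells from different mice.

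The rule genes themselves show how the class was cut, and their values are a description without a test. Plvap reached 2406, 2460 and 2164 CPM (the usual unit, taken over all UMIs of the class) in the WT mice and 2359, 2410 and 2007 CPM in the ArcSwe mice, and was 0 in barrier cells by construction. The gene lies at chr8:71497765-71511752 on the minus strand of mm10. Esm1, which encodes a secreted endothelial proteoglycan, ranged from 865 to 1334 CPM in fenestrated cells against a barrier mean of 0.464 CPM. Igfbp3, encoding a binding protein for insulin-like growth factors, ranged from 1583 to 2847 CPM against 25.5 CPM. Plvap varied little between mice and Rbp7, at 551 to 1087 CPM, more, with ArcSwe 3 lowest for Plvap, Cd300lg and Igfbp3 and WT 3 lowest for Esm1 and Rbp7.

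The 5 markers were each detected in most of the members. The members were chosen by these same genes, so the shares below describe the rule and are no check of the label. Esm1 was found in 67.0% to 92.5% of fenestrated cells by mouse, Rbp7 in 51.5% to 79.2%, Cd300lg in 80.9% to 96.2% and Igfbp3 in 80.9% to 98.1%. In microglial cells, which should lack Plvap, it was found in at most 0.705% of cells at median depths of 1198 to 5893 UMIs. When 514 members were each thinned to 1500 UMIs, Plvap was still found in 94.4%, Igfbp3 in 79.4%, Esm1 in 58.2%, Cd300lg in 56.4% and Rbp7 in 45.5%. In barrier cells thinned in the same way, Esm1 was found in 0.0642% and Igfbp3 in 2.60%.

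The label was checked against endothelial markers that the rule did not require of the members. Pecam1 was found in 91.8% to 100% of fenestrated cells and Cdh5 in 87.6% to 98.1%, and Flt1 in at least 99.0%. A barrier sum of 6 or more, the condition set for the other class, was met by 524 of the 531 members. Cldn5, the main claudin of the blood-brain barrier, was found in 7.0% to 38.2% of fenestrated cells and in 98.9% to 99.6% of barrier cells. The microglial cells were chosen to hold at most 1 UMI of the barrier rule genes, Cldn5 among them. Their Cldn5 share, 6.35% to 17.4%, is therefore no free measure of background. A fenestrated share as low as that of WT 2 is not read as expression. The microglial cells were the shallower class in 5 of the 6 mice. In WT 1, where they were deeper, the Cldn5 share was 7.08% in microglial and 21.1% in fenestrated cells. The same limit applied to the microglial share, so this gap does not show whether fenestrated cells expressed Cldn5. Of these genes Pecam1 and Cdh5 are free of both rules. The Cldn5 level in fenestrated cells was 50.1 to 785 CPM against a barrier mean of 5110 CPM, and as Cldn5 helps to choose the barrier class this gap is no check of the label.

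**Figure D1:**
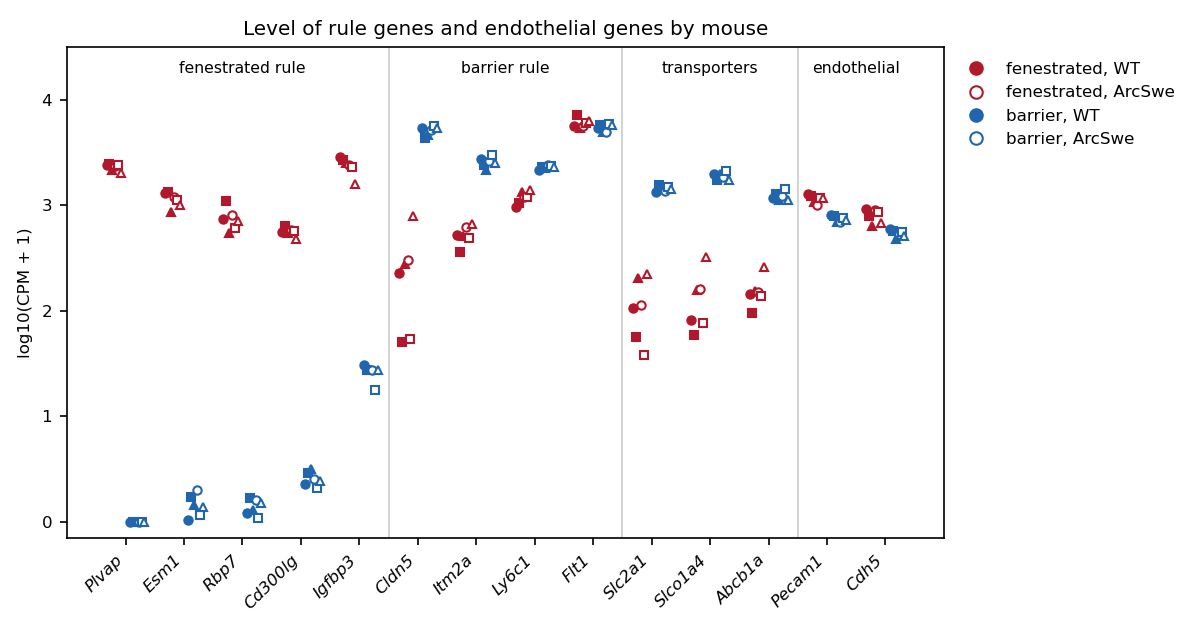
Level of the rule genes, of 3 barrier transporter genes and of Pecam1 and Cdh5 in each mouse, as log10 of CPM plus 1, in the summed fenestrated cells (red) and barrier cells (blue), with WT mice filled, ArcSwe mice open and 1 symbol shape per replicate number. Plvap lay at 0 in the barrier cells by the rule, Cldn5 lay between 50.1 and 785 CPM in the fenestrated cells, and Pecam1 lay at 1002 to 1280 CPM in the fenestrated cells.

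Cells near the limits of the rule were few. Just inside, 28 members had exactly 2 Plvap UMIs and 5 had a marker sum of exactly 4. The 28 carried Plpp3 at 2314 CPM and the glucose transporter gene Slc2a1 at 146 CPM. Just outside, 16 cells had 1 Plvap UMI with a marker sum of at least 4, with Plpp3 at 1189 CPM and Slc2a1 at 1501 CPM, while 2 cells with enough Plvap had a marker sum of 3 and another 2 had a sum of 2. In all, 441 cells met the barrier sum and held some Plvap without being members of either class, a count that can take in cells left out for myeloid UMIs.

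Fenestrated cells made up a small share of the endothelium in both genotypes. As a percentage of fenestrated and barrier cells together they were 1.29, 2.40 and 1.73 in the WT mice and 2.16, 2.87 and 0.918 in the ArcSwe mice. The ArcSwe mice held both the highest and the lowest share, and the genotypes overlapped. The mean was 1.81% ± 0.560 (SD, n = 3) in WT and 1.98% ± 0.989 (SD, n = 3) in ArcSwe, a difference of 0.175 percentage points (2-sided exact permutation test, p = 0.8, where 3 against 3 mice cannot go below 0.1). Without ArcSwe 3 the difference was 0.707 points without ArcSwe 2 it was -0.270 and without WT 1 it was -0.0840, so its sign rested on single mice. Of all cells kept, the shares were 1.29% ± 0.425 in WT and 1.51% ± 0.789 in ArcSwe (SD, n = 3 each; exact permutation test, p = 0.8), and capture of vessel fragments on beads can set such shares.

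Next, fenestrated cells were set against barrier cells within each mouse. Both classes were chosen by their gene counts, so the differences are described with no test. Genes with a mean of at least 50 CPM in either class were used, 4232 in all, with the rule genes left out. A gene counted as higher or lower where the log2 ratio of CPM plus 10 was at least 1, or at most -1, in each of the 6 mice. By this measure 247 genes (5.84%) were higher in fenestrated cells and 244 (5.77%) were lower, and the median log2 ratio over the 4232 genes was -0.02. A gene of low level in 1 class could enter this count through the other class alone, so the counts for the gene groups below are read as descriptions beside these percentages.

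Among the 15 genes that stood highest in fenestrated cells were a pair of related lipid phosphatase genes. Plpp3, a phosphatase that degrades bioactive lysophospholipids, reached 3452, 3876 and 3271 CPM in the WT mice and 4107, 3527 and 3098 CPM in the ArcSwe mice. Its barrier levels were 26.1 to 45.4 CPM, a 102-fold gap between the means and a mean log2 ratio of 6.32. Every fenestrated value lay far above every barrier value for this gene, and the same was so of its relative Plpp1, at 1733 to 2959 CPM against a barrier mean of 89.0 CPM.

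Piezo2, a mechanically gated ion channel, ranged from 493 to 658 CPM in fenestrated cells with a barrier mean of 0.428 CPM. Col13a1, which encodes a transmembrane collagen, ranged from 504 to 780 CPM against 0.470 CPM. Cd24a, encoding a glycosylphosphatidylinositol-anchored surface protein, ranged from 973 to 1678 CPM against 19.6 CPM. Piezo2 and Col13a1 were close to absent from barrier cells, Cd24a was present there at a low level, and the fenestrated values lay above the barrier values in each mouse.

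Gpihbp1, which carries lipoprotein lipase to the capillary lumen, ranged from 234 to 504 CPM in fenestrated cells, lowest in WT 2, against a barrier mean of 0.323 CPM. Ednrb, an endothelin receptor, ranged from 234 to 536 CPM against 3.34 CPM. The matrix collagen Col15a1 ranged from 157 to 236 CPM against 0.997 CPM. The other genes among the 15 most separated upward were Hecw2, Car8, Slc43a3, Exoc3l2, Btnl9, Fam167b and Enpp6, with mean log2 ratios of 4.40 to 5.66.

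Among the 15 genes that stood lowest was the main glucose carrier of the barrier. Slc2a1, the glucose transporter of the blood-brain barrier, lay at 105, 54.9 and 202 CPM in fenestrated cells of the WT mice and at 114, 37.1 and 220 CPM in those of the ArcSwe mice. Barrier cells held a mean of 1443 CPM, 11.8-fold more, and the mean log2 ratio was -3.68. Fenestrated cells were below barrier cells in each mouse, with the smallest gaps in WT 3 and ArcSwe 3.

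Bsg, encoding the glycoprotein basigin, lay at 536 to 1988 CPM against a barrier mean of 11939 CPM. Ptn, encoding the growth factor pleiotrophin, lay between 2.06 and 193 CPM against 1454 CPM, and the metallothionein genes Mt1 and Mt2 had mean log2 ratios of -3.78 and -3.65. Spock2, a matrix proteoglycan gene, had a ratio of -3.90, and Fn1, the fibronectin gene, of -3.54. The other lowest genes were Srarp, Gm9946, Mal, Nebl, Grb14, Stxbp6, Tmem252 and Pglyrp1, with ratios of -3.80 to -3.16. The spread between mice was wider for the lower genes than for the higher ones, with ArcSwe 2 at the extreme for 13 of the 15.

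**Figure D2:**
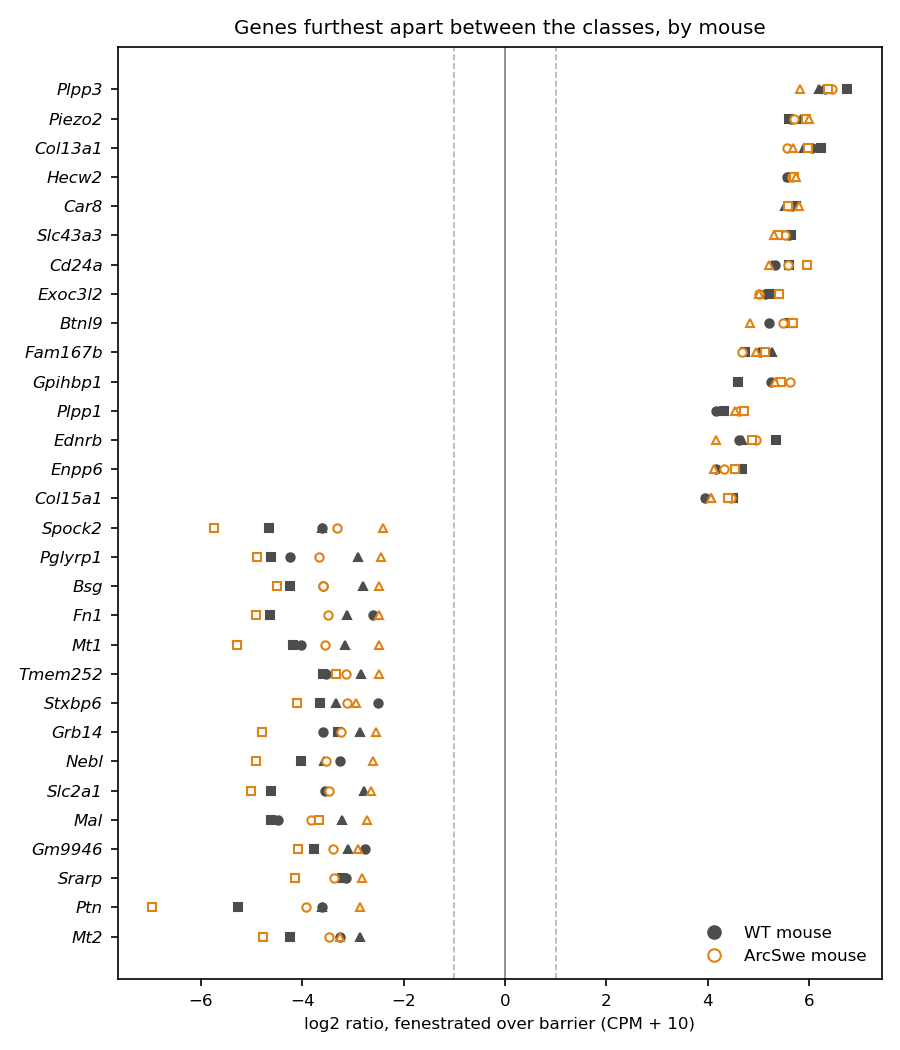
Log2 ratio of fenestrated over barrier CPM plus 10 in each mouse for the 15 genes furthest up and the 15 furthest down, with WT mice as filled and ArcSwe mice as open symbols. The 15 upper genes lay at 3.94 or above in each mouse, and the 15 lower genes lay at -2.42 or below with a wider spread between mice, ArcSwe 3 often nearest to 0.

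Gene groups were described one by one, and the lists were drawn up with earlier results of these data known. Genes of peripheral capillaries, expressed in capillaries of tissues such as heart and fat, stood highest. Of 18 listed, 12 passed the level filter, 9 were higher in all 6 mice and 1 was lower, with a median log2 ratio of 2.63 against -0.02 over all genes. Besides Plpp3, Plpp1 and Gpihbp1, the cell cycle regulator Rgcc was at 1680 CPM ± 224 (SD, n = 6) against 359 CPM. The exception was Vwa1, a matrix protein gene, at 213 CPM against 666 CPM.

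The nutrient carriers of the barrier showed the opposite. Of 21 solute carrier genes, 18 passed the filter, 15 were lower in all 6 mice and 0 were higher, and the median log2 ratio was -2.73. Slco1a4, an organic anion transporter, lay at 80.0, 58.1 and 156 CPM in the WT mice and at 161, 76.3 and 325 CPM in the ArcSwe mice, against a barrier mean of 1897 CPM. Slco1c1, the carrier of thyroxine, ranged from 2.06 to 247 CPM against 1273 CPM. The taurine transporter gene Slc6a6 kept the highest level of the 15, at 586 CPM ± 100 (SD, n = 6) against 2085 CPM. Slco1a4 and Slco1c1 were highest in ArcSwe 3 and at or near their lowest in WT 2 and ArcSwe 2.

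Efflux pumps and receptors were measured beside the carriers. Abcb1a, which encodes P-glycoprotein, ranged from 95.3 to 258 CPM against a barrier mean of 1231 CPM, and was the single gene lower in all 6 mice among 3 of 8 ABC transporter genes that passed the filter. Of 9 genes for iron uptake and receptors, 7 passed and 5 were lower. These were Bsg, the insulin-like growth factor receptor gene Igf1r at 245 CPM against 1740 CPM, the transferrin receptor gene Tfrc at 39.8 CPM against 294 CPM, Lsr and Lrp8.

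Junction genes were split. Of 16 listed, 12 passed, 4 were lower and 1 was higher, with a median log2 ratio of -0.55. Ocln, the occludin gene, lay at 24.1 CPM ± 20.4 (SD, n = 6) against 254 CPM, and Lsr, a component of tricellular junctions, at 22.1 CPM ± 18.8 against 287 CPM. Tjp1 and Cgnl1, which encode adaptor proteins of the junctions, had ratios of -1.90 and -1.84. Jam3, an adhesion molecule of the same family as Jam2, went the other way, with 231 to 484 CPM in fenestrated cells and 8.90 CPM in barrier cells.

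Genes of the Wnt and norrin pathway were lower more often than higher. Of 26 listed, 21 passed, 14 were lower and 2 were higher, with a median log2 ratio of -1.94. Among transcription factors and targets, Lef1 lay at 46.9, 16.1 and 76.7 CPM in WT and at 47.2, 10.3 and 185 CPM in ArcSwe, against a barrier mean of 833 CPM. Foxq1 lay at 29.9 CPM against 437 CPM and Sox17 at 119 CPM against 443 CPM. The 2 genes that were higher were the norrin receptor Fzd4 at 253 CPM ± 41.0 against 95.2 CPM and its partner Tspan12 at 258 CPM ± 26.2 against 77.4 CPM (SD, n = 6 each). Another receptor gene, Fzd6, was lower at 51.3 CPM against 216 CPM.

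In the VEGF and angiopoietin pathway a minority of the genes differed in all mice. Kdr, the main receptor for vascular endothelial growth factor, lay at 2254, 2663 and 2108 CPM in WT and at 2681, 2597 and 2013 CPM in ArcSwe, against a barrier mean of 396 CPM. Its co-receptor Nrp1 lay between 2037 and 2517 CPM against 240 CPM. All 6 values of each gene were above the barrier values. Of the 20 genes of this pathway 12 passed, and 4 were higher: Kdr, Nrp1, Nrp2 and the adrenomedullin receptor gene Calcrl. The ligand gene Vegfc was lower, at 31.4 CPM against 171 CPM.

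In other signalling groups few genes differed in all mice. Of 16 genes of the TGF-beta and BMP pathway that passed, 1 was higher, Bmp6, which encodes a ligand, at 176 to 351 CPM against 7.48 CPM. Of 10 Notch pathway genes that passed, 0 were higher and 2 were lower, the ligand gene Jag1 and the target gene Hey1, at log2 ratios of -1.46 and -1.49. Among 18 pan-endothelial genes, Emcn, encoding a sialoglycoprotein of capillaries and veins, was higher at 2661 CPM ± 192 against 636 CPM, as was Kdr, and Sox17 was lower.

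Genes of caveolae, the vesicles of transcytosis, mostly did not separate the classes. Of 11 that passed, 1 was higher and 1 was lower. Ehd4, an ATPase of endocytic membranes, lay at 1126 CPM ± 124 against 117 CPM. Mfsd2a, a lipid transporter that restrains transcytosis at the barrier, lay at 10.9 CPM ± 11.8 against 202 CPM (SD, n = 6 each). Cav1, the caveolin gene, named here after its values were seen, lay at 255 CPM ± 35.9 against 338 CPM, and its log2 ratios were -0.89 to -0.05.

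Markers of arteries and of veins of the barrier were lower in fenestrated cells more often than higher. Of 14 arterial genes that passed, 7 were lower and 1 was higher, the ephrin gene Efnb2 at 229 CPM against 77.4 CPM. The mean ratio was above 0 for 5 of the 14. The arterial gene Gkn3 lay at 18.8 CPM against 299 CPM. Of 8 venous genes that passed, 6 were lower, among them the von Willebrand factor gene Vwf at 33.1 CPM against 287 CPM and the beta-thymosin gene Tmsb10 at 172 CPM against 1276 CPM. Of 8 leukocyte adhesion genes that passed, Mcam was higher at 150 CPM against 30.1 CPM, and Icam1 and Vcam1 were lower.

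Matrix genes ran in both directions. Of 18 that passed, 5 were higher and 3 were lower. The collagen IV genes Col4a1 and Col4a2, core components of basement membrane, lay at 1031 and 788 CPM against 340 and 250 CPM, and the perlecan gene Hspg2 at 836 CPM ± 58.4 against 112 CPM. Nid1 and Col15a1 were the remaining higher genes, and Vwa1, Spock2 and Fn1 were the lower ones. Among 9 vasoactive and coagulation genes that passed, Ednrb and the cyclooxygenase gene Ptgs1, at 191 CPM ± 15.3 against 10.3 CPM, were higher, and Plat, Vwf and Edn1 were lower.

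Immune, clock and stress genes differed little in all mice at once. Of 13 MHC class I genes that passed, 0 met the fold in all 6 mice, although the median log2 ratio was 0.76 and the mean ratio was above 0 for all 13. Of 24 interferon response genes 1 was higher, Iigp1 at 339 CPM against 94.7 CPM. Of 9 hypoxia and glycolysis genes 2 were lower, Slc2a1 and Ankrd37, and of 4 clock output genes 0 met the fold. Of 14 immediate early and stress genes, which dissociation can induce, Atf3 was lower at 536 CPM against 1623 CPM. The summed level of those 14 genes was lowest in WT 3 in both classes, at 13532 CPM in fenestrated cells against 20420 to 27849 CPM in the other mice.

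**Figure D3:**
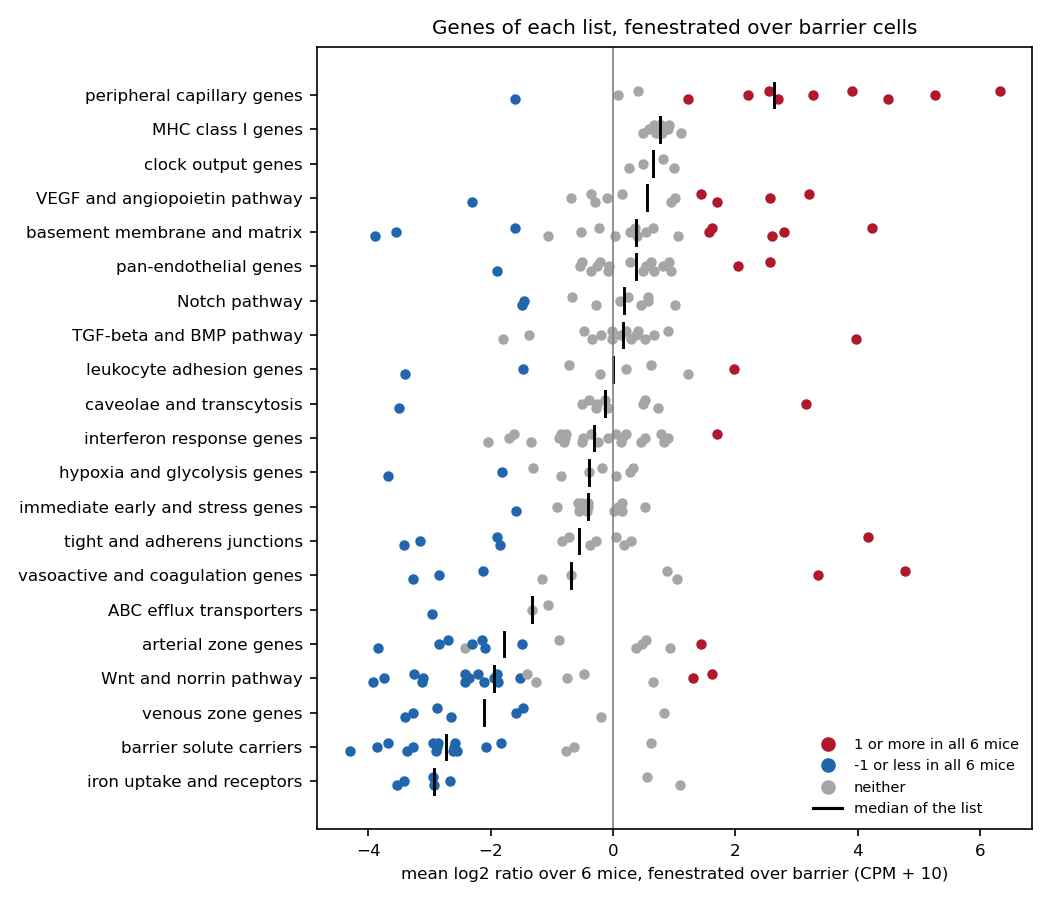
Mean log2 ratio over 6 mice of fenestrated over barrier CPM plus 10 for each gene of each list that passed the level filter, in red where it was 1 or more in all 6 mice, in blue where it was -1 or less in all 6 and in grey otherwise, with the list's median as a black line. Peripheral capillary genes had a median of 2.63, and barrier solute carriers and iron uptake genes had medians of -2.73 and -2.93.

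RNA of other cell types in the fenestrated sums was measured with fixed lists. The 12 microglial and macrophage genes summed to 166, 200 and 660 CPM in WT and to 336, 188 and 938 CPM in ArcSwe. The choroid plexus epithelium genes summed to 276, 173 and 1037 CPM and to 380, 233 and 1760 CPM. Ttr alone was at 781 CPM in WT 3 and 1494 CPM in ArcSwe 3 and at 27.6 to 116 CPM in the other mice. In WT 3, 90 of 97 members had a Ttr UMI, and in ArcSwe 3 a single member held 437 of the 556 Ttr UMIs. Lists for fibroblasts, ependyma, oligodendrocytes, neurons and lymphatic endothelium each summed to at most 25.6 CPM in any mouse.

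Globin genes varied most between mice among the lists of other cells. The erythroid and platelet list summed to 2925, 2377 and 393 CPM in the WT mice and to 5944, 27797 and 352 CPM in the ArcSwe mice, led by the beta-globin gene Hbb-bs. Single members held 2784 of 2789 Hbb-bs UMIs in ArcSwe 1 and 3830 of 7422 in ArcSwe 2. The pericyte and smooth muscle list summed to 199, 344 and 53.5 CPM and to 21.7, 33.0 and 43.0 CPM, and 148 of the 168 Rgs5 UMIs of WT 2 lay in 1 member. The part of this RNA in the differences between the classes was not tested. The astrocyte list summed to 323 to 388 CPM in fenestrated cells, 159 CPM of it the connexin gene Gja1, while the astrocyte genes Slc1a3 and Slc1a2 were at 2.79 and 2.04 CPM.

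The members were then clustered among themselves by the Leiden method. At resolution 0.5 there were 4 clusters of 200, 174, 122 and 35 cells, and they are called by their leading genes because none met the conditions for a name. The first was led by Rgs5, Egr1, Csrnp1, Cdkn1a and Atf3, the second by Grin2a, Chrm3, Grm8, Cyp7b1 and Lrmda, and the third by Igkc, Cd74, Igfbp5, Bank1 and Ighm. In the first, Egr1, an immediate early gene, was at 2962 CPM against 1230 CPM in the other members and was found in 99.5% of cells. Several leading genes came from few cells and do not describe their clusters as a whole. Rgs5 was found in 7.0% of the first cluster, Grin2a in 10.3% of the second against 7.0% of the other members, and Grm8 in 7.47% against 4.76%. In the third, Igkc was found in 1.64% of cells, Cd74 in 9.84% against 9.78% and Igfbp5 in 0.820% against 0.733%.

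WT 3 differed from the other mice in its clusters. It gave 71 of its 97 members to the second cluster and 9 to the first, whereas WT 2 gave 13 and 61 of 100. ArcSwe 1 gave 27 and 56 of 135. Each of these 3 clusters held cells from all 6 mice. At resolution 0.3 there were 2 clusters and at 1 there were 6, so the division of the 3 larger clusters depended on the setting.

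The fourth cluster was the same 35 cells at each of the 3 resolutions. It was led by Slco1c1, Spock2, Slco1a4, Lef1 and Ptn, each a gene that barrier cells carried at a high level. Its cells came from the mice as 3, 2 and 6 in WT and 10, 0 and 14 in ArcSwe. Cldn5 was at 2283 CPM in these 35 cells against 58.9 to 77.7 CPM in the other clusters, and Plvap at 1153 CPM against 2189 to 2624 CPM. The median cell had 7441 UMIs, and 100% of the 35 had at least 2 UMIs of Slco1a4, Slc2a1, Mfsd2a and Abcb1a, as did 165 members in all.

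ArcSwe 3, with 14 of its 89 members in this cluster, was the mouse with the highest fenestrated Slco1a4, Slc2a1 and Lef1, and ArcSwe 2, with 0, had the lowest Slc2a1 and Lef1. Whether 2 cells in 1 droplet contributed to these 35 barcodes was not tested. Without the 165 members, 243 genes were higher than in barrier cells and 279 lower, of which 230 and 234 were shared with the counts above.

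**Figure D4:**
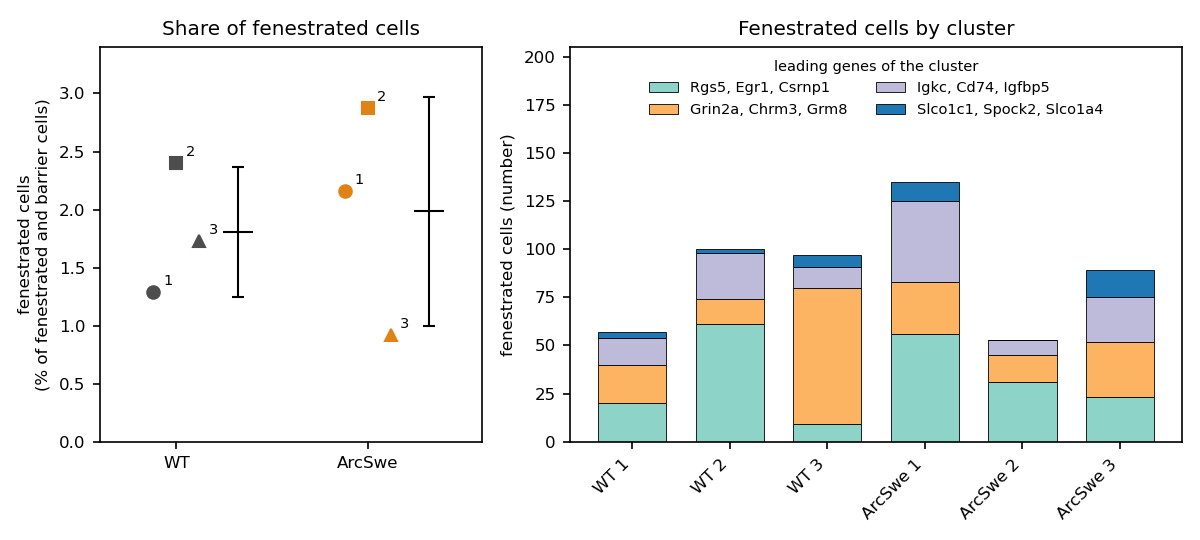
Left, fenestrated cells as a percentage of fenestrated and barrier cells in each mouse (numbered points) with the mean and SD beside them (n = 3 mice per genotype). Right, number of fenestrated cells of each mouse by cluster, named by its first 3 leading genes. The shares overlapped between genotypes, from 0.918% to 2.87% in ArcSwe, and 71 of 97 cells of WT 3 lay in the second cluster (Grin2a, Chrm3, Grm8).

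The comparison of genotypes is not a contrast that the rule used, although the cells that enter it are set by the rule, and it was tested on counts summed per mouse with edgeR's quasi-likelihood test. The study asked whether amyloid deposition alters the vascular transcriptome. In fenestrated cells 0 of 6482 genes (0%) had a Benjamini-Hochberg adjusted p under 0.05. At an unadjusted p under 0.05 there were 289 genes (4.46%), and DESeq2 called 0 genes and left 93 at that unadjusted level. With no filter on low counts edgeR called 14 genes, Iigp1, Fgf13 and Meis2 among them. Fgf13 had the lowest adjusted p in edgeR, 0.44. Without WT 3 edgeR called 1 gene, the pericyte gene Rgs5, whose UMIs lay largely in 1 member each of WT 1 and WT 2. In barrier cells edgeR likewise called 0 of 14382 genes (0%), and DESeq2 called 13.

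The values of the mice did not overlap between genotypes for 621 genes (9.58%) of fenestrated cells, 305 higher in ArcSwe (4.71%) and 316 lower (4.88%). In barrier cells this was so of 1285 genes (8.93%). Scaled by all UMIs in place of the trimmed mean of M values, the split was 236 higher and 418 lower, so 36.1% in place of 49.1% of the non-overlapping genes were higher. The median log2 fold change over the 6482 genes was 0.00. Since no gene passed the adjusted test, the genotype values that follow are given as values and not as changes.

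Of the 10 genes with the smallest p among those without overlap and with more than 3 UMIs in every mouse, 3 are on the interferon response list: Iigp1, Ifit3 and Gbp7. Iigp1, an immunity-related GTPase, was at 342, 284 and 202 normalized CPM in the WT mice and at 540, 395 and 690 in the ArcSwe mice. Each ArcSwe value was above each WT value, with a log2 fold change of 0.97 ± 0.226 (SE) and an adjusted p of 0.993 in edgeR (unadjusted 0.000592). With no filter on low counts the Iigp1 fold change was the same and its edgeR adjusted p was 0.00189. Iigp1 had at least 76 UMIs in every mouse, so its own counts were the same in both fits. DESeq2 did not call it, and why the adjusted p moved was not tested. The lower value is therefore not read as a change. In barrier cells the Iigp1 log2 fold change was 0.77. Normalized CPM here means CPM on library sizes scaled by the trimmed mean of M values over the genes tested.

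Ifit3, which restrains viral replication, was at 22.99, 11.8 and 23.9 normalized CPM in WT and at 49.9, 50.6 and 54.8 in ArcSwe. Its log2 fold change was 1.44 ± 0.341 (SE; edgeR adjusted p = 0.993), against 0.79 in barrier cells. Gbp7, a guanylate-binding protein gene, was at 177, 126 and 160 in WT and at 200, 286 and 284 in ArcSwe. Irgm2, Gm12185 and Gm12216 had log2 fold changes of 1.05, 0.81 and 0.75. For these genes the ArcSwe mice lay above the WT mice without passing the test.

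Tgfbr3, the TGF-beta co-receptor betaglycan, was at 72.3, 53.2 and 63.8 normalized CPM in WT and at 125, 104 and 129 in ArcSwe, a log2 fold change of 0.94 ± 0.224 (SE). Entpd1, the ectonucleotidase CD39, was at 305, 292 and 263 in WT and at 173, 182 and 206 in ArcSwe, a log2 fold change of -0.62 ± 0.171. Sema5a, a semaphorin gene, was at 65.7, 43.4 and 53.2 in WT and at 12.5, 30.4 and 25.8 in ArcSwe. Tex264, a receptor gene for autophagy of the endoplasmic reticulum, had a log2 fold change of 1.01. All 10 genes had an edgeR adjusted p of 0.993, so none passed.

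**Figure D5:**
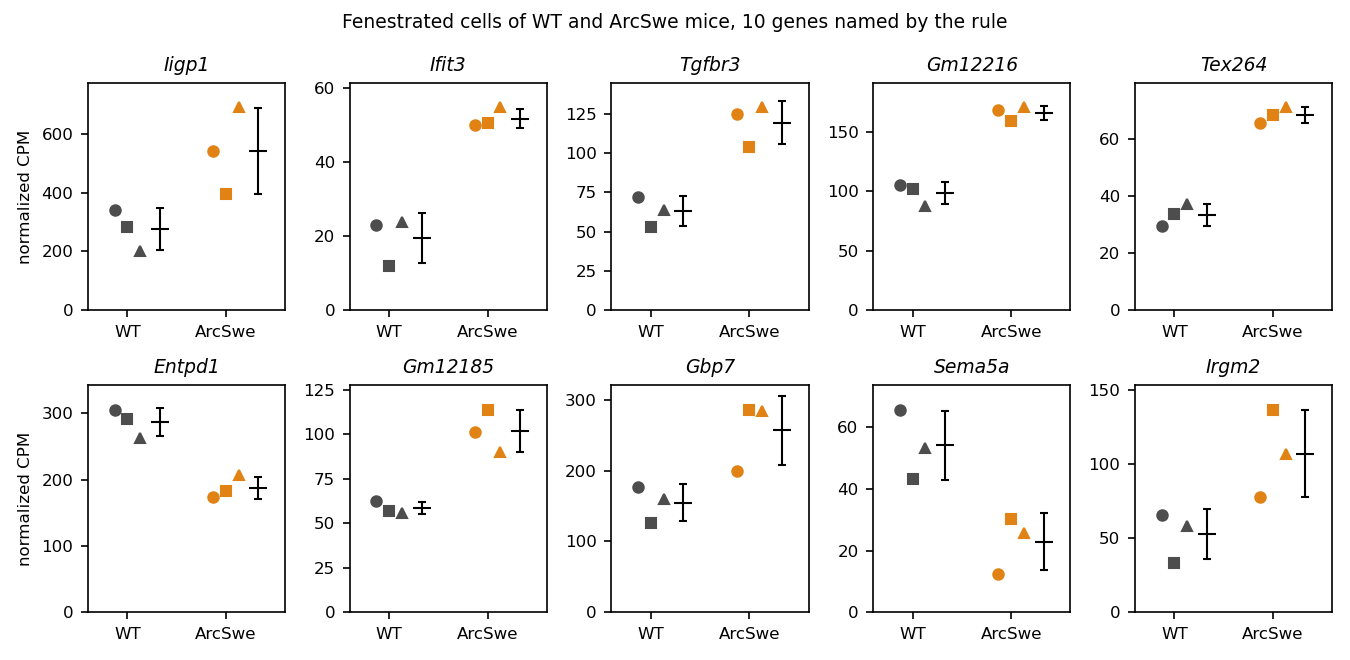
Normalized CPM of 10 genes in the summed fenestrated cells of each mouse, WT in grey and ArcSwe in orange, with the mean and SD (n = 3) in black and each axis starting at 0. These are the genes with the smallest unadjusted p among those without overlap and with more than 3 UMIs in every mouse, and each has an edgeR adjusted p of 0.993.

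The MHC class I and interferon lists had medians above 0 in both classes of endothelium. All 14 MHC class I genes tested had a log2 fold change above 0 in fenestrated cells, with a median log2 of 0.54 against 0.00 over all genes, 0 called, 6 at an unadjusted p under 0.05 (4.46% of all genes) and 4 without overlap (9.58% of all genes). In barrier cells the 14 genes had a median of 0.41 and 11 without overlap (8.93% of all genes). The microglia and macrophage list had the same sign, with 5 of 5 genes above 0 and a median of 0.51 in fenestrated cells and 11 of 11 and 0.32 in barrier cells, 0 of them without overlap, and its part in the MHC class I values was not tested. B2m, the shared light chain of class I molecules, was at 1797, 1259 and 1934 normalized CPM in WT and at 2442, 2700 and 2841 in ArcSwe. Its log2 fold change was 0.68 ± 0.190 (SE; edgeR adjusted p = 0.993) in fenestrated cells and 0.64 in barrier cells, where DESeq2 but not edgeR called it, as it did H2-Q6 and H2-Q7. B2m and the other genes without overlap, H2-T22, H2-Q6 and H2-Q7, were named after their values were seen, and the H2-Q genes are similar in sequence, so that their counts are uncertain.

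Of 24 interferon response genes tested 22 were above 0, with a median log2 of 0.31, 0 called, 9 at an unadjusted p under 0.05 and 8 without overlap, all higher in ArcSwe, beside 4.46% and 9.58% of all genes for the last pair of counts. In barrier cells 27 of 29 were above 0, with a median of 0.37 and 15 without overlap (8.93% of all genes). WT 2 was the lowest mouse for Ifit3, B2m and Gbp7.

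The 4 MHC class II genes tested were measured on few UMIs. Cd74, the invariant chain, had 17, 3 and 21 UMIs in WT and 124, 65 and 39 in ArcSwe, and H2-Eb1 had 8, 0 and 6 against 32, 14 and 16. Cd74 UMIs lay in 52 of the 531 members, 59 of the 124 of ArcSwe 1 in 1 member and 37 of the 65 of ArcSwe 2 in another. The log2 fold changes of the 4 genes were 1.35 to 2.19, with a median of 1.91, 0 called, 4 at an unadjusted p under 0.05 (4.46% of all genes) and 2 without overlap (9.58%). With no filter on low counts edgeR called Cd74, H2-Aa and H2-Eb1. In barrier cells 4 of 7 class II genes were above 0, with a median of 0.02. The list of lymphocyte and granulocyte genes, B cell genes among them, summed to 2.76, 4.85 and 9.30 CPM in WT and to 33.2, 136 and 18.8 CPM in ArcSwe fenestrated cells. Its most abundant gene, the immunoglobulin gene Igkc, had 0 UMIs in the WT mice and 19, 53 and 2 in the ArcSwe mice, the 19 and the 53 each in 1 member. The part of such cells in the class II values was not tested.

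The circadian lists had medians of opposite sign. Of 7 clock output genes tested 6 were above 0, with a median log2 of 0.48 and 3 without overlap, and of 3 clock positive limb genes 0 were above 0, with a median of -0.51 and 1 without overlap, where 9.58% of all genes did not overlap. Dbp, a transcription factor of the clock output, was at 85.4, 59.1 and 21.3 normalized CPM in WT and at 134, 119 and 61.3 in ArcSwe, so the groups overlapped, and its log2 fold change was 1.00 ± 0.405 (SE; edgeR adjusted p = 0.993). Barrier cells had medians of 0.32 and -0.53 for the lists, and 1.05 for Dbp, which DESeq2 but not edgeR called there. The hour at which each mouse was killed is not given in the sources used here.

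The lists of growth factor signalling genes had medians near 0, with members on both sides. Of 16 TGF-beta and BMP genes tested 8 were above 0, with a median log2 of -0.02, and 5 did not overlap, 1 of them higher in ArcSwe, against 9.58% of all genes. Id1, a BMP target gene, was at 779, 625 and 705 normalized CPM in WT and at 482, 425 and 558 in ArcSwe, a log2 fold change of -0.52 ± 0.174 (SE), against -0.23 in barrier cells. The inhibitor gene Smad6 had a log2 fold change of -0.62 ± 0.209 (SE), against 0.03 in barrier cells. Both were named after their values were seen, and both had an edgeR adjusted p of 0.993. Of 14 VEGF and angiopoietin genes tested 9 were above 0, with a median of 0.09 and 3 without overlap, 2 of them higher, and of 13 barrier solute carriers 10 were above 0, with a median of 0.24 and 0 called. The fourth cluster, led by Slco1c1, Slco1a4 and Lef1, gave 3, 2 and 6 cells in WT and 10, 0 and 14 in ArcSwe, and its part in the values of the solute carriers and of the Wnt list was not tested.

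Medians of the other lists lay on both sides of 0, with 0 called in each. The 5 ABC efflux genes tested had a median log2 of 0.26, the 14 Wnt and norrin genes of 0.22 with 11 above 0, the 10 arterial genes of -0.23 with 2 above 0 and the 9 Notch genes of -0.15 with 1 above 0. The 18 pan-endothelial genes had a median log2 of 0.02, the 12 peripheral capillary genes of -0.01 and the 19 matrix genes of 0.01. The 14 immediate early and stress genes had a median of 0.17 with 13 above 0 and 0 without overlap, and in barrier cells 12 of 14 were above 0. Whether reads of the human transgene were counted in App was not tested, and App was at 2171 normalized CPM ± 325 in WT and 2205 ± 117 in ArcSwe (SD, n = 3 each). The male labels were met by 0 UMIs of Xist and by 28 to 113 UMIs of Ddx3y in the fenestrated cells of each mouse. Nnt, which is disrupted in the C57BL/6J strain, had 3 UMIs in the fenestrated cells of all mice together.

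Meis2, Dapk2, Robo2 and Casp4, which the study names, were below the filter in fenestrated cells. The paper describes Meis2, Dapk2 and Robo2 in a fenestrated subcluster of App NL-G-F mice, another model of Alzheimer's disease. It reports higher Casp4 in App NL-G-F and ArcSwe mice, as a possible sign of apoptosis in brain endothelium. The fenestrated values below are therefore not a like comparison. Meis2, a homeobox gene, had 5, 1 and 7 UMIs in WT and 18, 37 and 8 in ArcSwe, in 19 of the 531 members, with 28 of the 37 in ArcSwe 2 and 15 of the 18 in ArcSwe 1 in 1 member each. With no filter on low counts edgeR called Meis2, at a log2 fold change of 2.09 ± 0.436 (SE; adjusted p = 0.00385). In cells thinned to 1500 UMIs a Meis2 UMI was found in 1.36% of fenestrated, 0.0946% of barrier and 0.124% of microglial cells. Casp4, an inflammatory caspase gene, had 2, 20 and 5 UMIs in WT and 15, 2 and 11 in ArcSwe. Dapk2 had 1 to 5 UMIs in each mouse and Robo2 had 1 UMI in ArcSwe 1 and 0 elsewhere. In barrier cells thinned to 1500 UMIs, a Casp4 UMI was found in 3.02%, 3.04% and 2.68% of cells in WT. In ArcSwe it was found in 5.53%, 2.69% and 5.80%, so the genotypes overlapped.

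The difference between the genotype effect in fenestrated and in barrier cells was tested in 1 edgeR model with mouse as a block. Of 13004 genes, 2 (0.0154%) had an adjusted p under 0.05. The count was 12, 2 and 20 without WT 1, 2 and 3 and 6, 33 and 12 without ArcSwe 1, 2 and 3, and Vcam1 and Fgf13 were called in each of these 6 fits. Vcam1, an adhesion molecule for leukocytes, had 0, 0 and 4 UMIs in fenestrated cells of the WT mice and 27, 6 and 16 in those of the ArcSwe mice. Its fenestrated counts were too low for the test within fenestrated cells, and it entered this model through its barrier counts. With no filter on low counts its log2 fold change within fenestrated cells was 3.31 (edgeR adjusted p = 0.000128). Under a looser rule, with at least 1 Plvap UMI and a marker sum of at least 3, it was 1.91 (edgeR adjusted p = 0.997). The fitted difference in log2 fold change was 3.36 ± 0.537 (SE; edgeR adjusted p = 0.000108), while Vcam1 in barrier cells was at 220, 205 and 331 normalized CPM in WT and at 311, 169 and 279 in ArcSwe, a log2 fold change of 0.01. Without WT 3, which held the 4 WT UMIs, the fitted Vcam1 difference was 11.2, a value that is no bound because the remaining WT mice were at 0. The UMIs lay in 17 members, and 19 of 27, 4 of 6 and 11 of 16 were in 1 member of each ArcSwe mouse. With the highest member of each mouse set aside, 0, 0 and 3 UMIs remained in WT and 8, 2 and 5 in ArcSwe, so the genotypes overlapped. The adjusted p for Vcam1 is therefore given as a value and not read as a difference between the classes.

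Fgf13, which encodes an intracellular regulator of sodium channels, had 1, 6 and 3 UMIs in fenestrated cells of WT and 21, 22 and 18 in those of ArcSwe. The difference in log2 fold change was 2.36 ± 0.429 (SE; edgeR adjusted p = 0.00103), with 0.11 in barrier cells. These UMIs lay in 31 members, and 20 of the 22 in ArcSwe 2 were in 1 member. Setting aside the highest member of each mouse left 0, 3 and 2 Fgf13 UMIs in WT and 15, 2 and 15 in ArcSwe, so ArcSwe 2 overlapped the WT mice. With the cells kept that had myeloid UMIs, 0 genes differed in edgeR: the Vcam1 difference was then 4.12 ± 1.15 (SE; adjusted p = 1) and that of Fgf13 0.78 ± 0.267 (adjusted p = 0.925). Without the members over 10000 UMIs the Fgf13 difference was 2.06 (edgeR adjusted p = 0.217). The next genes were Xlr, Pde4d and H2-Eb1, at 2.60, -0.70 and 2.11 with edgeR adjusted p of 0.103 to 0.237. Their side of the threshold depended on single mice. Without WT 1 all of them were called in edgeR, at adjusted p of 0.00197 to 0.0488. Without WT 2 none of them passed, at adjusted p of 0.457 to 0.946.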

How the data were processed

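The authors captured cells with CD31-coated beads, made 10x Genomics 3′ libraries of 6 mice, and counted UMIs per gene and cell with Cell Ranger 7.0.0 against mm10. The deposited values are raw counts in filtered matrices, 49059 barcodes of 32287 genes. Libraries held 26436229 to 59161203 UMIs, and PCR copies are collapsed by the UMI. Each library is 1 mouse, so n counts mice.

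Barcodes with 500 to 4500 genes and under 10% mitochondrial UMIs were kept, the classes were assigned by the rules of the first paragraph, and counts were summed per mouse and class. No doublet caller was run; the marker limits and the alternative without members over 10000 UMIs stand in for it. The members and the gene lists were chosen with earlier results of these data known.

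Fenestrated against barrier values are CPM over all UMIs of a class, with 10 CPM added before the log2. Genotype was tested with edgeR 4.0.16 (quasi-likelihood, TMM scaling, limma 3.58.1) in R 4.3.3, after 2914 ribosomal, mitochondrial, pseudogene and Rik genes and genes of low counts were removed. P-values were adjusted by Benjamini-Hochberg over all genes tested, and DESeq2 1.42.0 was the alternative. The difference between classes was fitted on both sums of each mouse with mouse as a block. Shares were compared by exact permutation. The edgeR and fold scripts were tested on simulated data.

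Clustering used 1000 variable genes, 15 components, 15 neighbours and Leiden resolution 0.5 (leidenalg 0.10.2, igraph 0.11.9, scikit-learn 1.9.0). Positions are those of GENCODE for GRCm38, which is mm10, and 32158 genes had a record. Genes named are the rule genes, the 15 furthest genes each way by their least extreme mouse, up to 4 of each list each way by level, the 10 genotype genes with the smallest p among those with no overlap and more than 3 UMIs in every mouse, the first 5 of the interaction, leading cluster genes, abundant genes of other cells, genes the study names and sample checks. Other named genes are said to have been chosen after their values were seen. Alternatives were other pseudocounts, filters, scalings, member rules and depths, leaving out each mouse, and a replicate block.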

Additional observations from a re-analysis of the deposited data

Results flagged for a closer look

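The fitted genotype effect on Vcam1 differed between fenestrated and barrier cells by 3.36 on the log2 scale (edgeR interaction with mouse as a block, adjusted p = 0.000108). It was flagged because the effects in the 2 classes differed by a test of the difference. The fenestrated UMIs were 0, 0 and 4 in WT and 27, 6 and 16 in ArcSwe, higher in 3 of 3 ArcSwe mice than in any WT mouse, and lay in 17 members. Vcam1 was too low for the test within fenestrated cells and entered this model through its barrier counts. With the highest member of each mouse set aside the UMIs were 0, 0 and 3 against 8, 2 and 5, so that the genotypes overlapped. The adjusted p is thus not read as a difference between the classes.

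The genotype effect on Fgf13 differed by 2.36 (adjusted p = 0.00103, same test) and was flagged for the same reason. All 3 ArcSwe mice, with 21, 22 and 18 UMIs, were above the 3 WT mice, with 1, 6 and 3, and 20 of the 22 lay in 1 member. Setting aside the highest member of each mouse left 15, 2 and 15 UMIs in ArcSwe against 0, 3 and 2 in WT, so the genotypes overlapped. With 2 genes among 13004, both calls were lost when members with myeloid UMIs were kept, where the Vcam1 difference was 4.12 ± 1.15 (SE) and the Fgf13 difference 0.78 ± 0.267, and the part of single cells in them was not tested further.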

How the results depend on the processing

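The fenestrated sums came from few cells, 53 to 135 a mouse. The count of genes called between genotypes, 0 in edgeR, was 14 with no filter on low counts and 1 without members with transporter UMIs (Cd74), and 0 to 1 when a mouse was left out. In barrier cells DESeq2 called 13 genes. The interaction count of 2 ran from 2 to 33 when a mouse was left out, with Vcam1 and Fgf13 called each time. Under alternatives chosen after seeing the data it was 8 without transporter-positive members, 14 without members over 10000 UMIs and 0 with myeloid UMIs kept. The cause of these moves was not tested.

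The share difference among fenestrated and barrier cells was -0.116 points without members over 10000 UMIs, -0.138 without transporter-positive members (both chosen after seeing the data), -0.00391 with thinned cells and -0.270 to 0.707 when a mouse was left out. Among all cells kept it was -0.0178, -0.0429 and -0.137 to 0.645 for the first, second and last of these. With 50 CPM added, 141 genes were higher and 135 lower in fenestrated cells, and clusters numbered 2 at resolution 0.3. The App log2 fold change ran from -0.0942 (without WT 3) to 0.115 (without WT 2) when a mouse was left out, and was -0.0107 without ArcSwe 1.

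The replicate block called 1 gene, Rgs5, in fenestrated cells and 0 in barrier cells. In fenestrated cells same-numbered mice had correlations of 0.0899, 0.101 and 0.224, and WT 2 correlated best with ArcSwe 1. In barrier cells the correlations were 0.0712, 0.243 and 0.329. Mice of unlike numbers had correlations of -0.178 to 0.116 in fenestrated and of -0.288 to 0.118 in barrier cells. With the block, 367 genes in fenestrated and 708 in barrier cells had an unadjusted edgeR p under 0.05. Without it there were 289 and 496. The labels state no pairing and the main tests used none, but whether the numbers pair the mice was not settled. Of 281 comparisons of named genotype genes 276 kept direction and side of the threshold. Of 480 comparisons of fenestrated with barrier genes 422 stayed the same, 58 moved in size and 0 reversed. Most named genotype genes were chosen because their values did not overlap between genotypes. The fenestrated and barrier genes were chosen by their least extreme mouse. These counts were therefore largely fixed by the choice of genes and are no measure of robustness.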
